A study of Homo sapiens with 3 samples.

Results

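SYNE1 and SYNE2 encode the giant nesprins, and 182 of the 17802 YBX1 peaks in the list (1.02%) lay in these 2 genes, 79 in SYNE1 and 103 in SYNE2. A peak here is a stretch of the genome to which the authors' peak caller assigned RNA captured with YBX1. Members were selected by position: every peak that overlapped the gene's hg19 span by 1 base or more was taken, with SYNE1 at chr6:152442819-152958936 and SYNE2 at chr14:64319683-64693167. The genes were chosen from this same peak list with their peaks already known, so the counts describe them and test nothing. The study used T24, a long-established line of human bladder carcinoma cells, made to overexpress Flag-tagged YBX1, and each of its groups has 1 library, namely the input, the YBX1 RIP and a YBX1 RIP treated with bisulfite to read m5C. All 3 came from this line by the characteristics label, although the source label of the bisulfite sample names a different line. RNA held by YBX1 was captured on anti-Flag beads, trimmed there with micrococcal nuclease and sequenced, with the purpose of examining m5C in the RNA that YBX1 binds.

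Nesprins are spectrin-repeat proteins of the nuclear envelope. Their long forms carry a pair of calponin homology domains at the N terminus, which bind actin, a long rod of spectrin repeats, and a C-terminal KASH domain that passes through the outer nuclear membrane and is held by SUN proteins in the space beneath it. This LINC complex couples the cytoskeleton to the nuclear lamina, positions nuclei and transmits force to them. Both genes also make shorter proteins from internal starts, among them forms that keep the KASH domain and lack the actin-binding end. Their full-length mRNAs are among the longest in human cells and are assembled from a very large number of exons. YBX1 is a cold-shock-domain protein that coats mRNA in the cytoplasm and binds RNA carrying m5C.

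The values below come from 1 list of positions with no replicate, no peak height, no read count and no strand. The depth behind a peak is therefore unknown, no spread between cultures can be given, and more RNA of a gene cannot be told apart from more YBX1 on each RNA. No capture from cells without the Flag tag is among the samples. The input was sequenced too, but the sources used here do not say whether it entered the peak call. Positions are on hg19 and printed as deposited, and widths are differences between end and start. Without an hg19 annotation no peak was assigned to an exon, an intron or a UTR.

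The nesprin peaks lay far from all other peaks of the list. Outside SYNE1, the nearest peaks lay 755 kb from its 3′ end (chr6:151687414-151687819) and 2096 kb from its 5′ end (chr6:155054578-155055193). Outside SYNE2, the nearest lay 2119 kb from its 5′ end (chr14:62200711-62201111) and 478 kb from its 3′ end (chr14:65171134-65171567). The gap in the list that ran across the 5′ end of SYNE1 measured 2352 kb, and 1.78% of the 17777 gaps between neighbouring peaks were as wide or wider. For SYNE2 the gap that ended at its 5′-most peak was 2118 kb, and 2.02% of gaps were as wide or wider. Only 37.3% of all gaps reached 10 kb, so these shares are low in part because most gaps lie between close peaks. The gaps on the 3′ sides were not ranked. The window from 64 to 65 Mb of chromosome 14 held 103 peaks, and each of the 103 belonged to SYNE2.

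Each nesprin gene has an estrogen receptor gene at its 3′ side. These receptors are transcription factors activated by estrogen. In the RefSeq gene table (GRCh38.p14), ESR1 reaches into the SYNE1 gene from its 3′ side, and ESR2 is the next gene after SYNE2. Each lies on the strand opposite to its nesprin. The other neighbours in the table are the noncoding RNA genes LOC105378061 and LOC107986529 beside SYNE1 and the pseudogene RNU7-116P beside SYNE2. SYNE1-AS1 and SYNE1-AS2, 2 antisense noncoding RNAs, and the pseudogenes RNA5SP223 and NANOGP11 lie inside SYNE1 in that table. MIR548H1, a microRNA gene, and the pseudogenes HMGN2P14 and RPS28P1 lie inside its SYNE2 entry. Since the list has no strand, a peak over an overlapping gene cannot be assigned to either of them.

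SYNE2 carried 15.7% of the 657 peaks on chromosome 14, and SYNE1 7.85% of the 1007 on chromosome 6. Chromosome 14 had 109 peaks per 100 protein-coding genes of the table with SYNE2 counted and 91.7 without it. Chromosome 6 had 96.0 with SYNE1 and 88.5 without it. Removing SYNE2 lowered its chromosome by more than removing SYNE1 did. This follows from the counts alone, since SYNE2 has more peaks and its chromosome fewer coding genes, 605 against 1049.

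**Figure D1:**
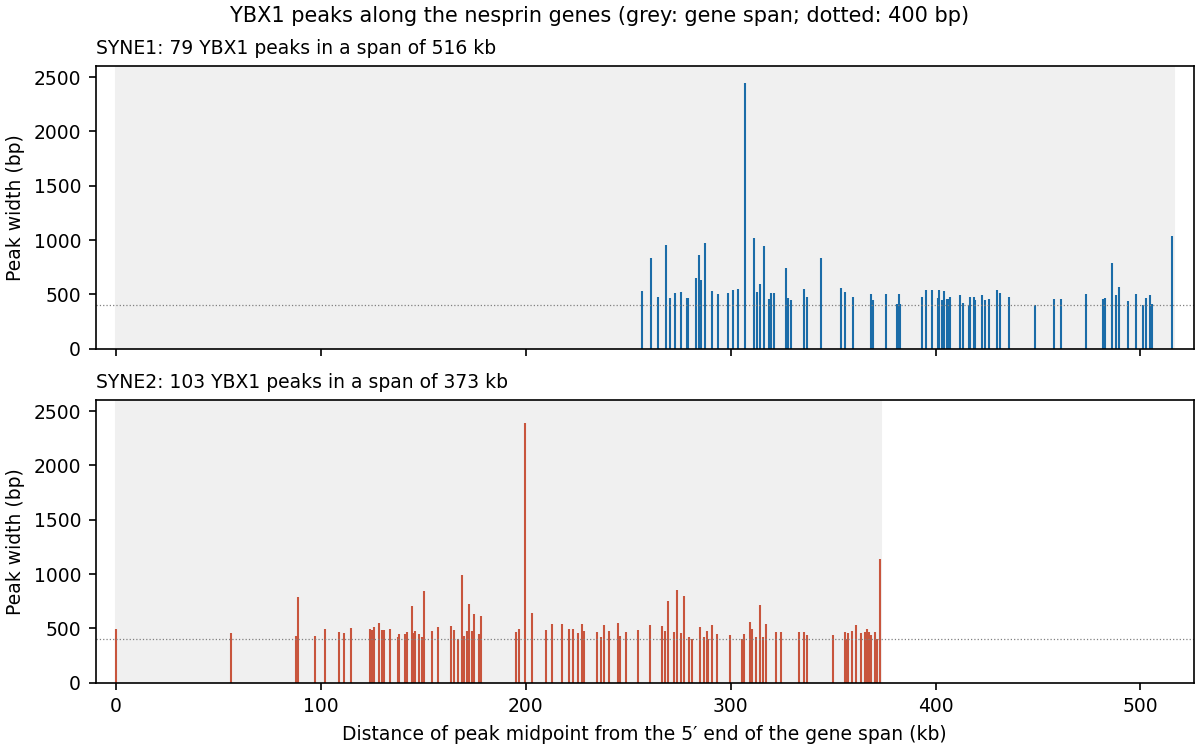
Each vertical line is 1 YBX1 peak, placed by the distance of its midpoint from the 5′ end of the gene span (kb) and drawn to its width (bp); grey marks the span and the dotted line 400 bp, the narrowest width in the list. SYNE1 has no peak in the first 256 kb of its span. SYNE2 has 1 at the start of its span, 1 more before about 87 kb and the other 101 from there on.

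Peaks covered only part of each gene. In SYNE1, read from its 5′ end, the first 256 kb held no peak at all, and all 79 peaks lay in the remaining 260 kb, 50.3% of the span. The 5′-most SYNE1 peak was chr6:152701951-152702482, 531 bp wide, and its 3′-most was chr6:152442854-152443892, which ended 35 bp from the 3′ end of the span. SYNE2 had peaks at both ends of its span. The 5′-most, chr14:64319562-64320055, ran from 121 bp before the span to 372 bp inside it. The 3′-most, chr14:64691994-64693130, ended 37 bp before the 3′ end. The peak across the SYNE2 start is the only member that lies partly outside its span. The next SYNE2 peak followed after 55.6 kb (chr14:64375654-64376117), and a further 31.0 kb separated it from the one after. Thus the first 100 kb of the hg19 spans held 5 peaks in SYNE2 and 0 in SYNE1. The longest RefSeq SYNE2 entry measures 465 kb, more than the 373 kb of the span. Whether the added length lies at the 5′ end was not examined. If it does, the SYNE2 distances from the 5′ end would be longer and its count in the first 100 kb lower.

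The sequences around the outermost of the RefSeq promoter starts at hand are shown for each gene. A peak crossed the 5′ end of the span in SYNE2, and none came near that of SYNE1. The longest RefSeq SYNE2 entry measures 465 kb and the span 373 kb, so the printed SYNE2 start need not be where that entry begins. Sequences were matched by gene symbol, 120 bases before the start in lower case and the 30 bases from the start onward in capitals. Their positions are on GRCh38.p14, chr14:63852884-63853033 on the plus strand for SYNE2 and chr6:152637333-152637482 on the minus strand for SYNE1, and are not to be set against the hg19 positions of peaks.
SYNE2: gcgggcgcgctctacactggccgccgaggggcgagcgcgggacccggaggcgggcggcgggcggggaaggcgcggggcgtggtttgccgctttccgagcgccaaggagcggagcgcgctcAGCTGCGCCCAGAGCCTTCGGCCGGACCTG
SYNE1: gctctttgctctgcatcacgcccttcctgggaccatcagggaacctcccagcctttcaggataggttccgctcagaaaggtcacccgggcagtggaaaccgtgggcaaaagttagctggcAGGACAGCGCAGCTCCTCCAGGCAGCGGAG

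In the windows of 300 bp around these starts (250 before and 50 after, from the RefSeq table), SYNE2 had 71.7% G and C with 38 CpG dinucleotides, and SYNE1 had 51.7% with 12. The median over all 35116 windows was 58.7% G and C. SYNE1 has 4 such windows and SYNE2 has 3, the others for starts farther inside the genes. The second SYNE1 window, also at the 5′ side, had 79.0% G and C with 37 CpG dinucleotides. Y-box proteins are named after the Y-box, a promoter element built around an inverted CCAAT. The letters CCAAT or, on the other strand, ATTGG were in neither of the outermost windows, in 1 of the internal SYNE1 windows and in 1 of the internal SYNE2 windows, against 34.6% of all windows. This describes letters in the DNA and says nothing of where YBX1 binds RNA.

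Per length of gene, SYNE2 had more peaks than SYNE1. SYNE2 held 27.6 peaks per 100 kb of its 373 kb and SYNE1 15.3 per 100 kb of its 516 kb, a ratio of 1.80. Peaks covered 54.5 kb of SYNE2 (14.6% of its span) and 44.8 kb of SYNE1 (8.69%). Over the stretch from the first to the last peak the order was the reverse, with 30.4 peaks per 100 kb in SYNE1 and 27.6 in SYNE2, a ratio of 0.906. That SYNE2 stretch takes in its 2 lone 5′ peaks, with gaps of 55.6 and 31.0 kb after them. The other 101 SYNE2 peaks lay in 286 kb, against 79 SYNE1 peaks in 260 kb, so the reverse order rests on those lone peaks. Over equal stretches of 260 kb at the 3′ end of each gene, SYNE2 held 95 peaks (19.5% of the bases) and SYNE1 79 (17.3%), a ratio of 1.20. The longest SYNE2 entry in the RefSeq table on GRCh38.p14 measures 465 kb, more than the hg19 span used here, which could not be checked against an hg19 annotation. With the lengths of the RefSeq entries and the same peaks, SYNE2 had 22.2 peaks per 100 kb and SYNE1 15.3, a ratio of 1.45. With only peaks of at least 500 bp the ratio over the whole spans was 1.07. No test of these ratios was possible, because there is 1 list.

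Counted from the 3′ end in steps of 50 kb, SYNE1 held 13, 13, 18, 13 and 19 peaks over the first 250 kb, then 3, and none beyond 300 kb. SYNE2 held 18, 21, 16, 13 and 26 peaks over the same distances, then 7, 1 and 1. SYNE2 was thus at or above SYNE1 in each 50 kb step except that from 100 to 150 kb, where SYNE1 had 18 and SYNE2 16. The step from 200 to 250 kb held the most peaks in both genes, and peaks covered 27.5% of it in SYNE1 and 27.4% in SYNE2. In both genes the peaks thinned out beyond 250 kb from the 3′ end.

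**Figure D2:**
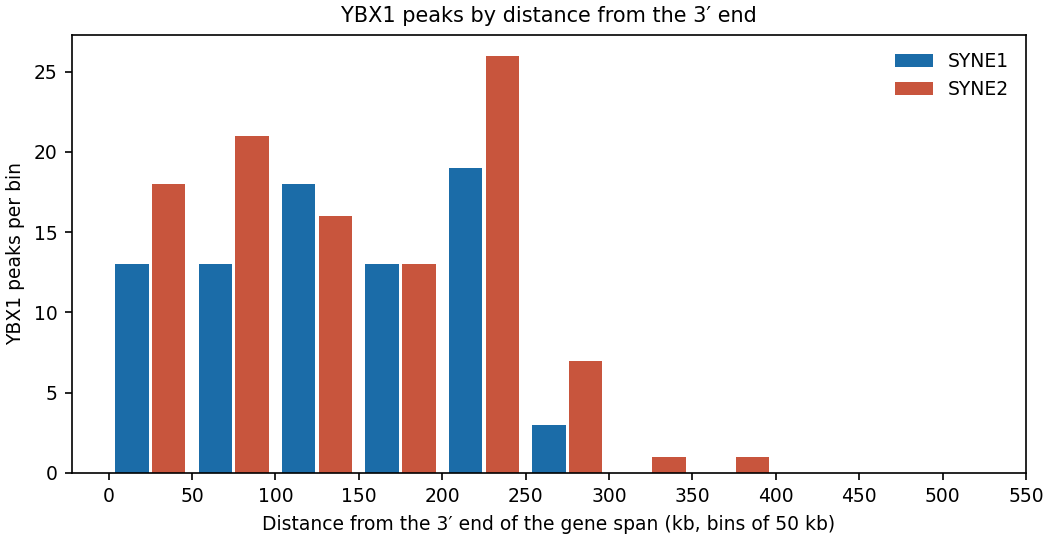
Bars give the number of YBX1 peaks, by midpoint, in steps of 50 kb from the 3′ end of each span (blue SYNE1, red SYNE2). Both genes have their tallest bar between 200 and 250 kb, with 19 peaks in SYNE1 and 26 in SYNE2; the SYNE2 span ends at 373 kb, so bars beyond it do not exist, whereas SYNE1 is present to 516 kb with 0 peaks past 300 kb.

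Neighbouring peaks were closer within each gene than over the list. The median gap was 1874.5 bp in SYNE1 and 1489.5 bp in SYNE2, against 4757 bp over the list. It was 1040.5 bp, shorter than in either gene, in rows of 10 or more peaks outside both genes. In those rows each gap is under 5 kb by definition, which does not hold for the gaps of a whole gene. The narrowest gap was 133 bp in SYNE1 and 127 bp in SYNE2. In SYNE1 75 of 79 peaks (94.9%) had another within 5 kb, and in SYNE2 97 of 103 (94.2%), against 68.0% over the list. Gaps of 10 kb or more numbered 2 of 78 in SYNE1 and 4 of 102 in SYNE2, against 37.3% over the list. The list gaps include those between genes, whereas the gaps within a gene leave out those at its edges. Both genes were also chosen with their many peaks known. Closer peaks than in the list therefore follow from the choice and are no separate result. The widest gap between peaks was 12.1 kb in SYNE1, between chr6:152522784-152523261 and chr6:152510268-152510675. In SYNE2 the gaps past 10 kb were the pair at its 5′ end, 1 of 16.4 kb after chr14:64497623-64498242 and 1 of 12.3 kb after chr14:64656642-64657082.

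When peaks closer than 5 kb were joined, SYNE1 fell into 13 runs and SYNE2 into 18. Runs of 10 or more peaks numbered 3 in SYNE1, with 59 of its 79 peaks, and 5 in SYNE2, with 68 of its 103, and 18.9% of all peaks in the list lay in such runs. The largest in SYNE1 was its 5′-most, with 26 peaks over 64.7 kb (chr6:152637800-152702482). It was followed by 22 peaks over 43.2 kb (chr6:152522784-152565967) and 11 over 24.3 kb near the 3′ end (chr6:152453070-152477348). The largest in SYNE2 held 19 peaks over 33.9 kb (chr14:64443113-64477027). The 3′-most SYNE2 run held 13 peaks over 17.8 kb (chr14:64675316-64693130), and the 3′-most peak of SYNE1 stood by itself, 9.18 kb from the next.

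These runs were set beside the 207 runs of 10 or more peaks elsewhere in the list, which have a median of 48.9 peaks per 100 kb (5th to 95th percentile 36.6 to 68.9). The 3 SYNE1 runs had 40.2, 50.9 and 45.3 peaks per 100 kb, all inside that range. In SYNE2 they had 56.0, 72.2, 55.3, 52.1 and 73.0 from 5′ to 3′, and the second and the last lay above it. Those were also the shortest of the nesprin runs compared, at 15.2 and 17.8 kb, against a median of 27.6 kb for the 207 runs. Density was not adjusted for run length. At a joining distance of 20 kb, 101 of the 103 SYNE2 peaks formed a single run over 286 kb, the largest of 5093 in the list. All 79 SYNE1 peaks then formed 1 run over 260 kb, the third largest. At 10 kb the largest SYNE1 run held 63 peaks and ranked 4 of 6655, and the largest SYNE2 run held 50 and ranked 10. At 5 kb the largest runs, of 26 and 19 peaks, ranked 19 and 40 of 8754, and at 2 kb, with 7 and 13 peaks, they ranked 94 and 13 of 11848. Which gene holds the larger run, and its rank, therefore depended on the joining distance, and that of 20 kb was chosen after seeing the data.

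Fixed windows as long as each span were tiled along the chromosomes as a background. Of 5875 windows of the SYNE1 length, 4 held 79 peaks or more (0.0681%), 1 of them the window with SYNE1 itself, and 62.9% held none. Of 8124 windows of the SYNE2 length, 0 (0%) held 103 or more, the most being 81, and 68.9% held none. The fixed borders cut SYNE2 into neighbouring windows, so its own peaks are split there. The members' counts chose these genes, and nothing is read from their place among the windows.

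**Figure D3:**
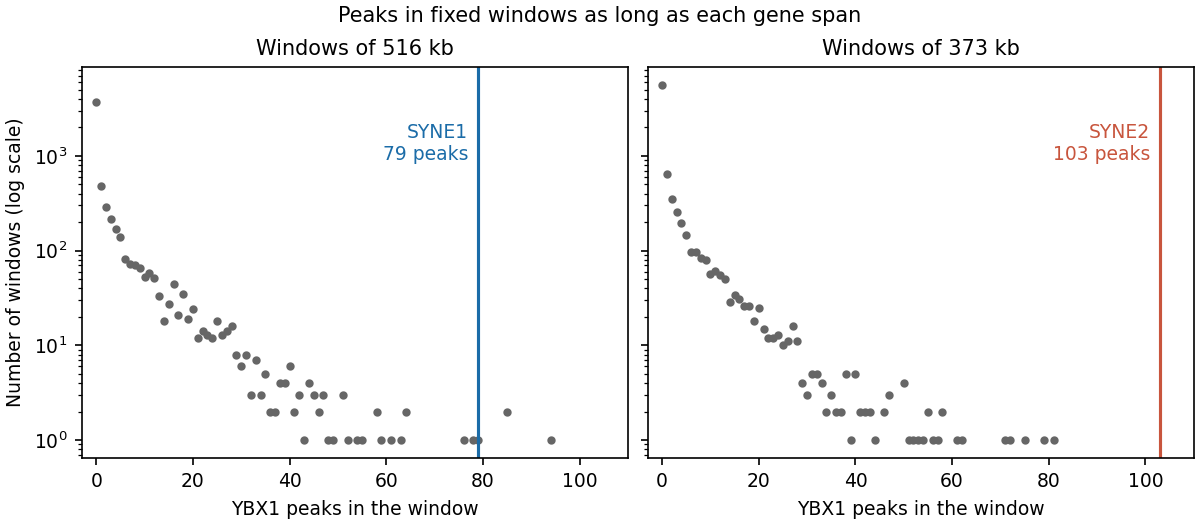
Points give how many fixed windows (log scale) held each number of YBX1 peaks, for windows of 516 kb at left and 373 kb at right; vertical lines mark the count in the gene span itself. The line for SYNE1 at 79 has 3 other windows at 85, 85 and 94 peaks to its right, and the line for SYNE2 at 103 has none.

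Most nesprin peaks were short and alike in width. The median was 500 bp in SYNE1 (quartiles 463.5 and 542.5) and 476 bp in SYNE2 (450 and 521.5), against 470 bp over the list (424 and 631). Peaks from 400 to under 600 bp made up 83.5% of SYNE1 and 86.4% of SYNE2, and 72.8% of the list. A width of exactly 400 bp, the minimum of the list, was found in 1 peak of each gene and in 6.39% of all peaks. Widths in both genes were thus less spread toward either end than in the list.

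In SYNE1 40 of 79 peaks were at least 500 bp wide (50.6%), and in SYNE2 31 of 103 (30.1%). The background was 40.8% in the list and 46.4% of the 3235 peaks in the long runs outside both genes. Peaks of at least 1000 bp numbered 3 in SYNE1 (3.80%) and 2 in SYNE2 (1.94%), against 9.80% in the list and 11.9% of 3235 peaks in the long runs outside both genes. Widths come from the same peak call as the counts that chose the genes, and peaks of a gene are not replicates, so no test was made.

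**Figure D4:**
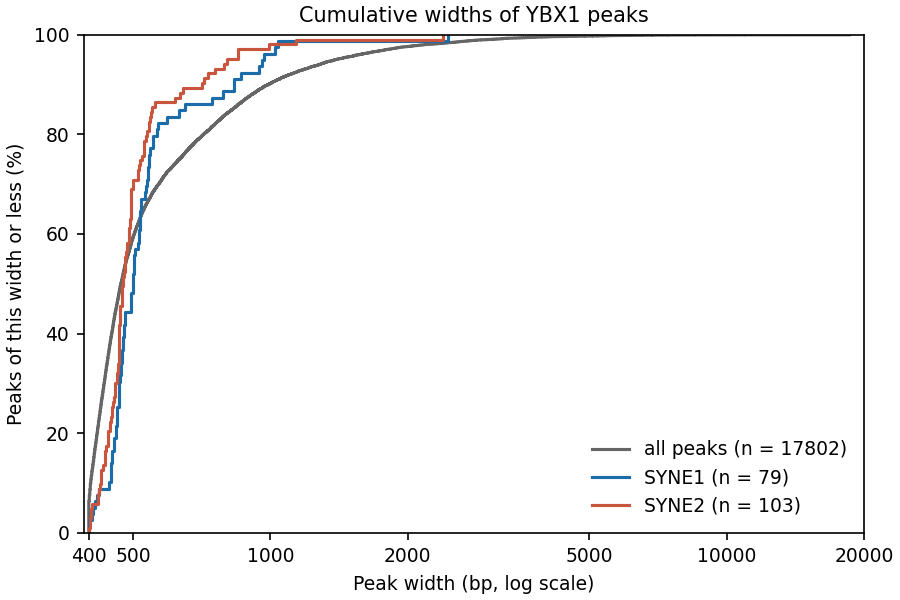
Lines give the share of peaks (%) with a width up to the value on the log-scaled horizontal axis (bp), for all 17802 peaks (grey), SYNE1 (blue, 79) and SYNE2 (red, 103). The curves of both genes rise later than the grey curve near 400 bp and then more steeply; 3.80% of SYNE1 and 1.94% of SYNE2 peaks reach 1000 bp, against 9.80% in the list.

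Each gene had 1 peak far wider than its others, and both lay at a like count of peaks from the 3′ end. In SYNE1 it was chr6:152650711-152653158, 2447 bp wide, the 61st of 79 peaks counted from the 3′ end and 208 kb from that end. In SYNE2 it was chr14:64518121-64520508, 2387 bp wide, the 62nd of 103 from the 3′ end and 173 kb from it. Counted from the 5′ end, these peaks were the 19th in SYNE1 and the 42nd in SYNE2, so the likeness holds only from the 3′ end. They ranked 287 and 301 by width among the 17802 peaks, and 422 peaks of the list (2.37%) were at least 2000 bp wide. The likeness in order was noticed in the data and was not tested, and whether the peaks lie over corresponding exons was not examined.

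The 3′-most peak was the second widest in both genes, at 1038 bp in SYNE1 and 1136 bp in SYNE2. The remaining SYNE1 peak above 1000 bp, 1023 bp wide, was the next peak toward the 3′ end after the widest (chr6:152646918-152647941). In SYNE2 the peak that followed these in width was chr14:64487880-64488873, with 993 bp.

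Median width differed more along SYNE1 than along SYNE2. With the peaks of SYNE1 taken in order from the 5′ end in 4 nearly equal groups, the median width was 536.5, 509, 472.5 and 477 bp. At least 500 bp was reached by 16 of 20, 13 of 20, 4 of 20 and 7 of 19 peaks. For SYNE2 the medians were 480.5, 495.5, 470 and 467 bp, and 6 of 26, 11 of 26, 9 of 26 and 5 of 25 peaks reached 500 bp. Of the 40 SYNE1 peaks that reached 500 bp, 29 were thus among the 40 peaks nearer the 5′ end. The SYNE2 groups differed by 28.5 bp at most and those of SYNE1 by 64.0 bp, in 1 list and with no error to set beside them.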

How the data were processed

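The processed data are 1 list of YBX1 peaks, and the deposited columns hold a chromosome, a start and an end, per the file headers. Trimmomatic, MACS2 and build hg19 are named in the submitters' processing notes, without settings. The sources used here do not give the aligner, the threshold or the libraries that entered the call.

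Peaks were assigned to SYNE1 or SYNE2 by overlap of 1 base or more with the hg19 spans printed in the report, which were supplied with the choice of genes and could not be checked against an hg19 annotation. Direction of transcription, promoter sequences and neighbouring genes came from RefSeq tables (GRCh38.p14), by symbol, and no coordinate was converted between builds. Both symbols matched. Windows of each span's length were tiled from chromosome starts to the last peak, with peaks counted by midpoint. The rule for named genes took the members and genes inside or beside them. LINC complex partners (SUN1, SUN2, SYNE3, SYNE4, LMNA, EMD, TOR1A) were not placed, since no hg19 positions were at hand. The members and lists were chosen with earlier results of these data known. Python 3.11.15, numpy 2.4.6, pandas 2.3.3, scipy 1.17.1 and matplotlib 3.10.9 were used, and the functions were tested on simulated data.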

Additional observations from a re-analysis of the deposited data

How the results depend on the processing

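Of 30 alternatives, 17 stayed within 1.5 times the reported value or, for a share, within its 95% Wilson interval. Some of the 17 could not have moved. Merging peaks closer than 100 bp joined none, since the narrowest gap was 127 bp. Lengthening the spans by 10 kb added none, since the nearest outside peak was 478 kb away. All SYNE1 peaks already lay whole inside the span, and 0 windows as full as SYNE2 stayed 0 among windows with peaks. The count of 17 is therefore no measure of stability. The 1.80-fold ratio of SYNE2 to SYNE1 counted among the 17 at 1.20 over equal 3′ stretches and at 1.45 per length of the RefSeq entries. These alternatives, the ratio per covered stretch and the joining distance of 20 kb were chosen after seeing the data. With only peaks of at least 500 bp, SYNE1 had 40 peaks over 5.23% of its span, SYNE2 had 31 over 5.80%, and the ratio of SYNE2 to SYNE1 in peaks per 100 kb was 1.07. Per length of the covered stretch, which in SYNE2 takes in gaps of 55.6 and 31.0 kb after its lone 5′ peaks, that ratio was 0.906. Among windows of the SYNE1 length with at least 1 peak, 0.184% held as many peaks as SYNE1. Joining peaks within 2, 10 and 20 kb gave 38, 3 and 1 runs in SYNE1, and 36, 5 and 3 in SYNE2, by construction of the distance. The planned comparison of nesprin proteins was not run, since no protein table was at hand. No paired analysis was possible because there is a single library per group. Depth, and with it the weakest bound region that could be seen, is unknown.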
